A study of Mus musculus with 13 samples.

Results

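The Calb1 group is a set of neurons of the mouse retrosplenial cortex, a midline cortical area used in navigation and memory, chosen by the counts of 3 genes. A cell belonged to it when its Calb1 level was at least 100 CPM (counts of a gene per 1000000 counts of the cell) and its summed level of Tnnc2 and Eps8l2 was under 30 CPM. By this rule 211 of 765 cells were members. Acute slices of the brains of wild-type mice of strain B6 were microdissected, and the cells were dissociated and pooled over slices, so that the place of a cell within the cortical layers was not recorded. They came in 11 samples from 3 animals (samples 1 to 3 from animal 1, 11 to 14 from animal 2 and 15 to 18 from animal 3), and each cell's name gives an anterior, medium or posterior level of dissection. All cells are of 1 strain and genotype, and the labels name no treatment. A further 2 sections of wild-type brain, measured in spots that can each hold several cells, served to describe which of the group's genes lie in the same spots as Calb1.

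Calb1 encodes calbindin, a cytosolic protein with EF-hand domains that binds calcium and shapes the rise of free calcium after a spike. In the rodent cortex it is known both from classes of inhibitory interneurons and from excitatory pyramidal cells of the upper layers. Upper-layer excitatory neurons mostly send their axons to other parts of the cortex. Excitatory neurons of the deeper layers also reach the thalamus, brainstem and spinal cord, and are known for transcription factors such as Fezf2 and Bcl11b. Tnnc2, a muscle troponin, and Eps8l2, an actin-binding protein, mark another population of these cells, and the rule keeps it out of the group.

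Calb1 had a count of 0 in 435 cells, and few cells lay near the limit. There were 7 cells from 50 to under 75 CPM and 3 from 75 to under 100 CPM. The members just inside had 101, 102 and 105 CPM, and the cells just outside had 86.0, 85.7 and 82.3 CPM. Among members the median of Calb1 was 863 CPM, with a 10th percentile of 194 CPM and a 90th percentile of 1850 CPM. The other limit was crossed less often, since 201 of the 211 members had under 1 CPM of Tnnc2 and Eps8l2 summed, and the members nearest to the limit had 16.6, 13.5 and 13.5 CPM. Of the 217 cells with enough Calb1, 6 were kept out by Tnnc2 and Eps8l2. These 6 cells held 236 to 2415 CPM of Calb1 and 38.8 to 302 CPM of the other pair, in totals of 111256 to 364838 counts per cell. They were counted with the other cells. The levels of these 3 genes chose the cells and are given as a description only.

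**Figure D1:**
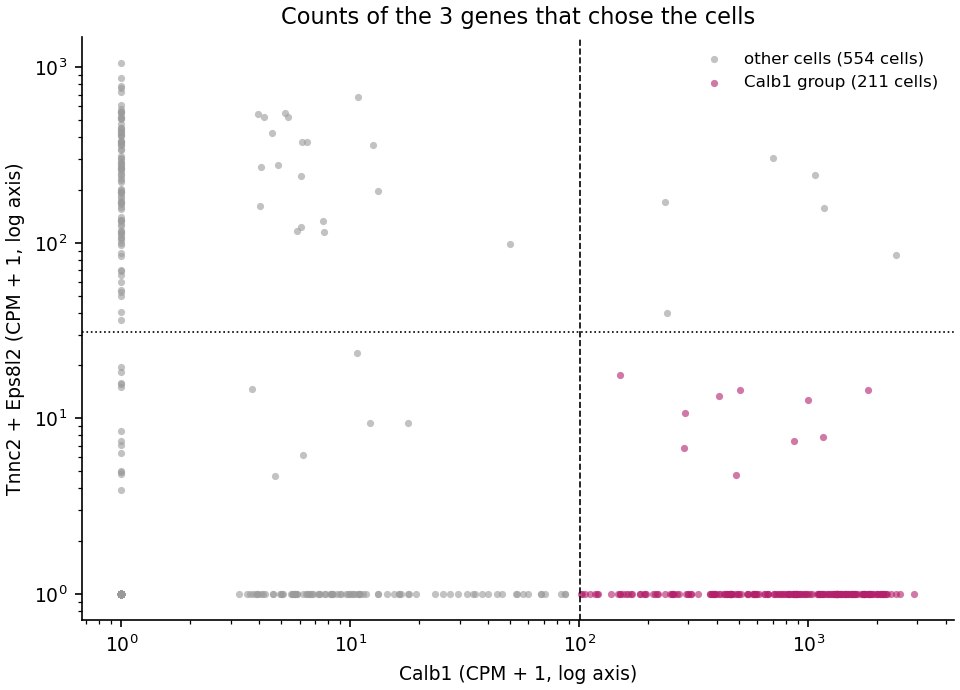
Each point is 1 of the 765 cells, with Calb1 on the x axis and summed Tnnc2 and Eps8l2 on the y axis (both CPM + 1, log axes); the dashed and dotted lines are the limits of 100 and 30 CPM. The 211 members lie to the right and below, 6 cells exceed both limits, and few cells lie near the Calb1 limit.

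The label of the group was compared with marker genes. Slc17a7, the vesicular glutamate transporter of cortical excitatory neurons, had a count in 99.1% of members (95% exact binomial interval 96.6 to 99.9%) and in 98.7% of other cells. Its level was 120 CPM ± 24.6 (SD, n = 3 animals) in members and 132 CPM ± 15.2 in other cells. Camk2a, the alpha subunit of the calcium/calmodulin-dependent kinase of excitatory neurons, had a count in 100% of members. The inhibitory markers Gad1 and Gad2, which make GABA, stood at 0.29 CPM ± 0.35 and 0.05 CPM ± 0.09 in members and at 0.27 CPM ± 0.29 and 0.19 CPM ± 0.13 in other cells. Of 8 listed genes of inhibitory neurons in the table, the summed level ran from 11.6 to 34.99 CPM over the animals in members and from 62.6 to 140 CPM in other cells, where Pvalb made up most of it. The members are excitatory neurons by these genes. No layer position was measured for the cells, and "superficial" in their label rests on gene lists written with earlier results of these cells known. Cux2 and Lamp5 were not analysed here.

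Markers of other cells were low but not absent. The summed level of 10 astrocyte genes was 278 to 328 CPM in members and 441 to 471 CPM in others, with Gfap at a count of 0 in members and Aqp4 at 0.17 CPM ± 0.21. For 10 oligodendrocyte genes the sums were 90.1 to 154 CPM in members and 143 to 316 CPM in others, and Mbp alone stood at 67.3 CPM ± 10.3 in members. For 4 genes of microglia and vessels they were 26.3 to 32.7 CPM and 53.2 to 62.4 CPM. Genes that respond to dissociation stress summed to 1435 to 1711 CPM in members and 1426 to 1480 CPM in others, and immediate early genes to 1859 to 2944 CPM and 1528 to 2490 CPM. Their part in the results below was not tested. The median cell held 139574 counts and 5231 detected genes among members and 138194 counts and 5492 genes among other cells, so depth differed little between the groups over all animals. In animal 2 members were shallower than other cells, at medians of 107026 and 143159 counts. The medians of members were 68992 counts in animal 1 and 174182 in animal 3. No barcode was repeated within a sample.

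The share of members differed between samples and, within each animal, between levels. Over the 11 samples the lowest share was 6.56% (4 of 61 cells, 95% exact binomial interval 1.82 to 15.9%), the median 28.2% and the highest 38.7%. Animal 1 had 24 members among 152 cells (15.8%), animal 2 had 87 among 304 (28.6%) and animal 3 had 100 among 309 (32.4%). In animal 1 the members were mostly anterior, with 17 of 45 anterior cells, 1 of 35 medium cells and 6 of 72 posterior cells. In animal 2 the highest share was posterior (39.4%, against 21.7% anterior), and in animal 3 it was anterior (43.8%, against 24.3% posterior). The posterior share minus the anterior one averaged -10.4 percentage points over 3 animals and was lower in 2 of them, and the medium share was lower by 15.9 points on average, again in 2 of 3 animals. Neither difference passed the test (two-sided exact permutation test, p = 0.5 and p = 0.3, adjusted p = 0.5 for both, where 3 against 3 can give no p below 0.1). The test took the levels as separate groups and did not use that their shares came from the same animals. A share of dissociated cells also depends on which cells survive and are picked, and this cannot be told apart from the makeup of the tissue.

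**Figure D2:**
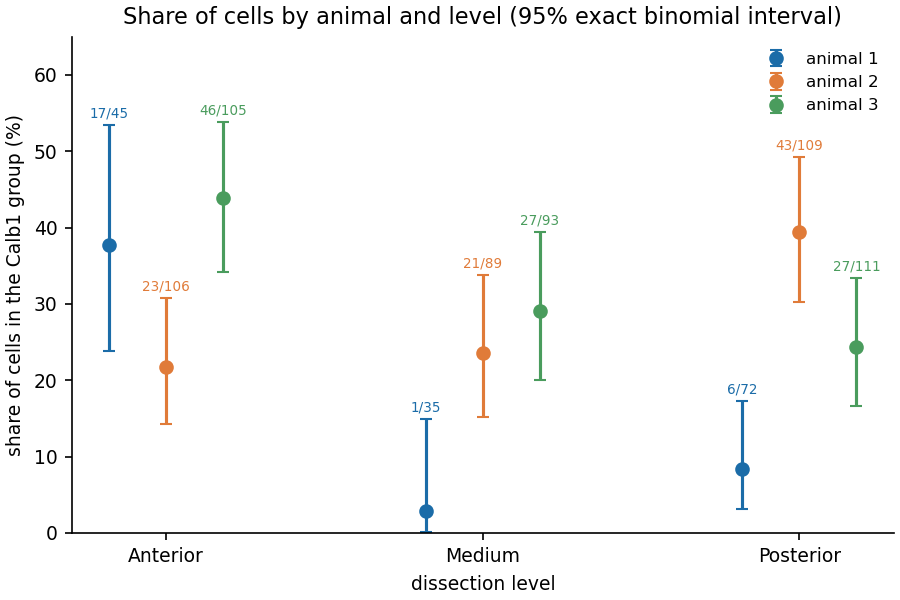
Share of cells in the Calb1 group (y axis, %) at each dissection level (x axis) in each of 3 animals (colours), with 95% exact binomial intervals and the number of members and cells above each. The order of the levels differs between animals: 17 of 45 anterior cells in animal 1 and 46 of 105 in animal 3, but 43 of 109 posterior cells in animal 2.

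To find which other genes set the group apart, counts were summed over members and over all other cells within each animal and compared with edgeR's quasi-likelihood test, in which each animal was a block. Calls needed an adjusted p (Benjamini-Hochberg) under 0.05 and a difference of 1 or more on the log2 scale, which is a doubling. The cells were chosen on counts in the same libraries, so that genes that go with Calb1, or against Tnnc2 and Eps8l2, had to differ. The test says which differences repeat over the animals. Of 13322 genes tested, 178 were called higher and 229 lower in members (3.06% of the genes in all), and the median difference over all genes was -0.05. Without animal 3, the one with most counts, 106 were higher and 146 lower. With the label's own markers, Ddit4l, Stard8 and Otof, named with these data in view, their differences are no independent support of the label.

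The 12 genes with the largest rise were taken from called genes at 20 CPM or more in members. Being higher in 3 of 3 animals was a condition of that choice. They included signalling, extracellular and muscle-type genes. Rasgrf2, an exchange factor that activates Ras and Rac and an established upper-layer gene of the cortex, stood at 186, 146 and 208 CPM in the members of animals 1, 2 and 3. It stood at 16.2, 19.3 and 14.3 CPM in their other cells, and the groups did not overlap (log2 difference 3.45 ± 0.21 SE, edgeR adjusted p = 0.00094). Ddit4l, an inhibitor of mTOR signalling related to a stress-induced gene, had 279, 304 and 333 CPM in members and 15.4, 30.3 and 44.4 CPM in others (3.43 ± 0.23, edgeR adjusted p = 0.00109). A count of it was found in 84.8% of members and 20.4% of other cells.

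Evc2 had the largest difference of the 12. It encodes a protein at the base of the primary cilium that works with Evc in hedgehog signalling. Its levels were 33.8, 69.2 and 75.8 CPM in members and 1.44, 4.81 and 5.76 CPM in others (3.97 ± 0.26, edgeR adjusted p = 0.00101). Its partner Evc, named after its values were seen, had 10.0 CPM ± 5.73 in members and 2.67 CPM ± 0.44 in others, and did not pass the test (1.80 ± 0.57, edgeR adjusted p = 0.128). Among the rest of the 12, Myh7, the slow and cardiac myosin heavy chain, stood at 61.0 CPM ± 4.07 in members and 5.91 CPM ± 1.66 in others. Mylk3, the kinase of the cardiac myosin light chain, stood at 44.0 CPM ± 13.6 and 4.08 CPM ± 1.87. Reads of Myh7 may be shared with close myosin genes, which makes its value uncertain.

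Of genes that act outside the cell, Ntn5, of the netrin family of guidance proteins, had 58.5, 62.6 and 59.1 CPM in members and 5.33, 7.43 and 9.34 CPM in others. It overlaps another coding gene in the annotation, so that some of its counts may belong there. Lpl, which splits triglycerides of lipoproteins, stood at 21.6 CPM ± 2.18 and 2.69 CPM ± 1.15, Abi3bp, an extracellular matrix protein, at 20.8 CPM ± 3.31 and 1.57 CPM ± 0.77, and Lrg1, a secreted leucine-rich glycoprotein, at 42.2 CPM ± 24.2 and 5.19 CPM ± 2.92. Stard8, a protein with a lipid-transfer domain, stood at 54.5 CPM ± 5.50 and 6.12 CPM ± 1.48, and was found in 57.8% of members and 10.1% of others. The remaining pair were Plk5, of the polo-like kinase family (27.7 CPM ± 6.48 and 2.06 CPM ± 0.49), and Syt17, of the synaptotagmin family (22.2 CPM ± 6.86 and 2.20 CPM ± 1.41). All 12 calls held in each of 13 other settings that were tried.

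Otof, the label's remaining marker, encodes otoferlin, the calcium sensor for vesicle release in inner hair cells. It fell under the level of 20 CPM for the leading genes, at 4.02, 18.7 and 20.02 CPM in the members of animals 1, 2 and 3, and 0, 0.11 and 0.15 CPM in the other cells. The difference was called (7.24 ± 0.63, edgeR adjusted p = 0.00211), and others had 10 counts in all. Otof marked a minority of the group, since 21.3% of members had a count, against 1.44% of others (18.8% and 0.60% when each cell was thinned to 50000 counts). Members also differed in how many of these genes they held. Of 6 genes (Ddit4l, Rasgrf2, Stard8, Evc2, Enpp2 and Otof, chosen after their values were seen), the median member had a count of 4 genes and the median other cell of 0 genes, at 50000 counts a cell. At least 3 of the 6 were found in 165 of 202 members and in 38 of 502 other cells.

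**Figure D3:**
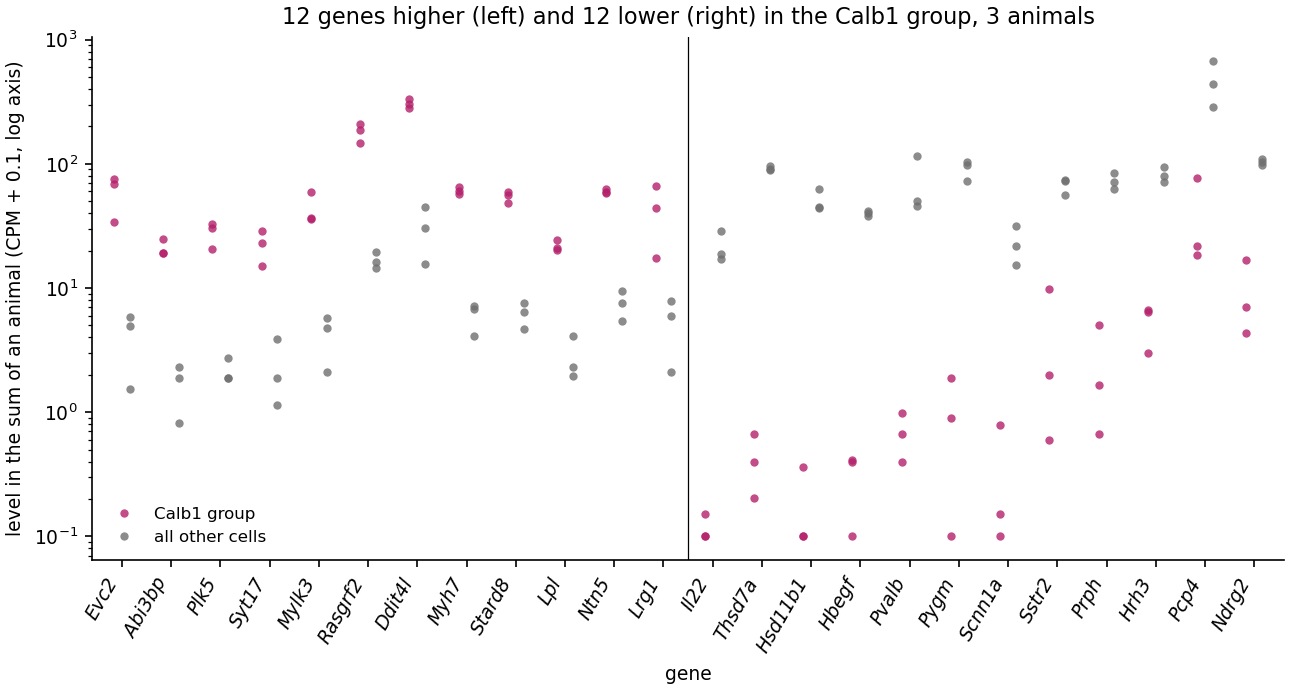
Level of 24 genes in the sum of each of 3 animals (y axis, CPM + 0.1, log axis), for members of the Calb1 group and for all other cells, with 1 point per animal. For each of the 12 genes on the left every member point lies above every point of the other cells, and on the right every member point lies below. The genes were chosen for a call, a large difference and the same direction in every animal, so this separation follows largely from the choice.

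The 12 genes that fell most were low in members, and several were nearly absent. Thsd7a, an endothelial and neural membrane protein with thrombospondin domains, stood at 0.57, 0.30 and 0.10 CPM in members and 91.1, 96.0 and 89.2 CPM in others (-8.77 ± 0.37, edgeR adjusted p = 0.000572). Hsd11b1, the enzyme that makes active glucocorticoid inside cells, had 5 counts in all members and 50.4 CPM ± 10.3 in others. Hbegf, a growth factor that binds the EGF receptor, stood at 0.20 CPM ± 0.18 and 39.8 CPM ± 1.78, and Pygm, the muscle glycogen phosphorylase, at 0.85 CPM ± 0.89 and 91.3 CPM ± 15.9. Scnn1a, the alpha subunit of the epithelial sodium channel, stood at 0.25 CPM ± 0.39 and 22.7 CPM ± 8.09.

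Several of these genes were high in the cells that the rule kept out. In the Tnnc2 Eps8l2 cells alone Thsd7a stood at 314 CPM ± 17.5 and Hsd11b1 at 182 CPM ± 63.6. With those cells left out of the comparison (an alternative added after the data were seen), 153 genes were called higher and 186 lower, and 284 of the 407 calls held. Thsd7a then differed by -6.41, Hsd11b1 by -6.41 and Pygm by -3.68 on the log2 scale, all still called. Scnn1a differed by -4.34 and lost its call (edgeR adjusted p = 0.0881). Il22, a cytokine of immune cells, had 1 count in members and 1633 in others, 594 times as much per total count (95% interval 107 to 23493, for counting error only). It has a near-identical copy, Iltifb, so that the split of counts between the copies is uncertain. Of the 1633 Il22 counts in others, 1437 were in the Tnnc2 Eps8l2 cells, as were 3029 of the 3450 Hbegf counts.

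The other genes that fell most included receptors and a calcium-binding protein of other neurons. Hrh3, the histamine autoreceptor that lowers transmitter release, stood at 6.31, 6.53 and 2.92 CPM in members and 94.2, 79.0 and 71.0 CPM in others (-4.03 ± 0.27, edgeR adjusted p = 0.00109). Sstr2, a somatostatin receptor, stood at 9.75, 0.49 and 1.88 CPM and at 56.4, 72.0 and 73.7 CPM, and it overlaps another coding gene. Pcp4, a regulator of calmodulin known from deep-layer neurons, fell from 469 CPM ± 197 in others to 38.8 CPM ± 32.5 in members (-3.83 ± 0.22, edgeR adjusted p = 0.00094). Pvalb, the calcium-binding protein parvalbumin, stood at 0.59 CPM ± 0.30 and 70.6 CPM ± 39.4. Prph, the intermediate filament peripherin, stood at 2.36 CPM ± 2.29 and 72.8 CPM ± 10.9, and Ndrg2 at 9.26 CPM ± 6.53 and 103 CPM ± 5.56. The Tnnc2 Eps8l2 cells held 4613 of the 5846 counts of Prph in others and 4816 of the 8960 counts of Ndrg2. With those cells left out, Prph differed by -3.06 and Ndrg2 by -3.11, both still called.

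Lists of genes by role were read against the share of 1.34% called higher and 1.72% called lower over all genes. Of 23 tested genes known from superficial layers, 11 were called higher and 0 lower, with a median difference of 1.46 against -0.05 over all genes. The list holds Ddit4l, Stard8 and Otof, and it was written with earlier results of these cells known. Beside those named above, the 11 held Enpp2, which makes lysophosphatidic acid (286 CPM ± 60.1 and 41.1 CPM ± 6.97, a difference of 2.80 ± 0.15, edgeR adjusted p = 0.00094). They also held the transcription factors Cux1 (79.7 CPM ± 9.07 and 26.4 CPM ± 7.73) and Lhx2 (82.6 CPM ± 12.2 and 23.9 CPM ± 4.83). Matn2, Pvrl3 and Gucy1a3 made up the rest, with differences of 2.49, 2.27 and 1.46. Of 28 tested deep-layer genes, 11 were lower and 0 higher, with a median of -2.51. This did not set members apart from the Tnnc2 Eps8l2 cells. Against those cells alone 3 of 18 were higher and 3 lower, with a median of 0.26 (3.82% and 3.5% over all genes). Against the Il1rapl2 cells, described below, 0 of 20 were higher and 3 lower, with a median of -1.59 (0.373% and 0.47% over all genes). Fezf2, which directs neurons to a subcortical projection, stood at 24.1, 19.2 and 2.09 CPM in the members of the 3 animals and at 118 CPM ± 12.7 in others (-3.49 ± 0.60, edgeR adjusted p = 0.0212). Etv1, a transcription factor of deep-layer neurons, had 27.7 CPM ± 11.1 and 203 CPM ± 11.9 (-2.97 ± 0.19, edgeR adjusted p = 0.00095). Bcl11b and Parm1 fell as well, by 2.63 and 3.53 on the log2 scale. Nxph3 fell by 5.19, a call that was lost without any 1 animal (edgeR adjusted p = 0.0534, 0.14 and 0.0522 without animals 1, 2 and 3). Beyond the 4 genes with the largest difference, the genes named from these lists were chosen after their values were seen.

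Of genes of the retrosplenial list, 4 of 11 were lower (Thsd7a, Hsd11b1, Pygm and Scnn1a, named above) and Id2 was higher. Most counts of these 4 lower genes in others were in the Tnnc2 Eps8l2 cells. They were 6494 of 7858, 3192 of 3944, 6644 of 7526 and 1360 of 1663 counts. Against the Il1rapl2 cells 0 of 8 tested genes were lower and 1 higher, with a median of 0.25 (0.47% and 0.373% over all genes). Thsd7a, Hsd11b1 and Pygm were not tested there. Id2, which blocks basic helix-loop-helix transcription factors, stood at 851, 1131 and 933 CPM in members and 392, 455 and 388 CPM in others (1.25 ± 0.07, edgeR adjusted p = 0.00094). Tshz2, a zinc-finger factor strong in the retrosplenial cortex, stood at 667, 625 and 530 CPM in members and 692, 453 and 651 CPM in others, and these ranges overlapped (0.05 ± 0.14, edgeR adjusted p = 0.882). Of 15 excitatory identity genes 3 were higher. These were Nrgn, a calmodulin-binding substrate of protein kinase C (1772 CPM ± 401 and 810 CPM ± 135), Neurod1 and the zinc transporter Slc30a3, both at a difference of 1.00, just at the limit. Without animal 1 both fell under it, at 0.93 and 0.81, and Neurod1 also lost its call without animal 2 (edgeR adjusted p = 0.0653) or animal 3 (0.102).

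Peptides divided within the list, with 3 of 20 tested genes higher and 2 lower. Cck, which makes cholecystokinin, stood at 4547, 3465 and 4014 CPM in members and 1978, 1786 and 1847 CPM in others (1.11 ± 0.05, edgeR adjusted p = 0.000875). Cbln4, a secreted organizer of synapses, stood at 19.1 CPM ± 3.93 and 3.76 CPM ± 1.46. Penk, which makes enkephalin, stood at 112, 368 and 354 CPM in members and 69.4, 94.5 and 164 CPM in others, with an overlap between the groups (1.30 ± 0.23, edgeR adjusted p = 0.0216). Its call was lost without the Tnnc2 Eps8l2 cells (0.93, edgeR adjusted p = 0.0669), and without animal 2 (a difference of 0.94, under the size limit). Nrtn and Nts, which make neurturin and neurotensin, had 1 and 3 counts in members and 1338 and 1119 in others. Without animal 3, Cbln4 (edgeR adjusted p = 0.0655), Nrtn (0.083) and Nts (0.101) were not called, and without animal 2 neither were Cbln4 (0.0761) and Nrtn (0.0559).

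Channels and receptors moved in both directions. Of 55 tested potassium channel genes and their partners 4 were higher and 7 lower, with a median of -0.03. Kcnip2, a subunit that makes A-type currents, stood at 42.5, 82.6 and 79.9 CPM in members and 11.1, 17.9 and 13.1 CPM in others (2.29 ± 0.21, edgeR adjusted p = 0.00286). Kcnh4 was higher too (2.55 ± 0.51), along with Kcnv1 and Kcnc2. The calcium-activated channels Kcnn1 and Kcnn2 were lower, by -1.56 and -1.79, as were the leak channel Kcnk2 (-2.15) and Kcng1 (-2.13), together with Kcnab1, Kcnab3 and Kcnip3. Kcnh4 lost its call without any 1 animal (edgeR adjusted p = 0.0628, 0.188 and 0.158), Kcnk2 without animal 2 (0.0643) or 3 (0.0596), and Kcng1 without animal 1 (0.104) or 3 (0.138). Of 29 tested sodium, calcium and HCN channel genes, Scn3b, a beta subunit of the sodium channel, was higher (599 CPM ± 77.7 and 210 CPM ± 49.7) and another beta subunit, Scn4b, was lower (9.15 CPM ± 4.56 and 33.5 CPM ± 12.5). The calcium channel subunit Cacnb3 was higher (1.22 ± 0.13).

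Of 22 tested glutamate receptor genes 3 were lower. The kainate receptor Grik1 had 8 counts in members and 1526 in others (-6.20 ± 0.57, edgeR adjusted p = 0.0027). Of these 1526 counts, 1207 were in the Tnnc2 Eps8l2 cells. Grik3 and the metabotropic Grm4 were lower, at -3.52 and -2.32. Without animal 3, Grik3 and Grm4 missed the threshold (edgeR adjusted p = 0.0548 for each). Of 16 GABA and glycine receptor genes Glra3 was higher (2.24) and Gabra5 lower (-1.30). Of 40 receptors for neuromodulators 4 were lower, which were Sstr2, the serotonin receptor Htr2c (5.06 CPM ± 1.99 and 40.9 CPM ± 5.52), the nicotinic subunit Chrna4 and the adenosine receptor Adora1. Another serotonin receptor, Htr7, was higher (25.8 CPM ± 3.81 and 6.16 CPM ± 1.70), except without animal 2 (edgeR adjusted p = 0.0812). Glra3 was not called without any 1 of the animals (edgeR adjusted p = 0.0815, 0.134 and 0.267).

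Of 54 axon guidance genes Ntn5 and Robo3, a receptor that steers crossing axons, were higher, with Robo3 at 142, 65.5 and 119 CPM in members and 14.3 CPM ± 1.30 in others. Sema4g and Sema5a were lower, on 3 and 7 counts in members, and lost their calls without animal 2 (edgeR adjusted p = 0.178 and 0.116) or animal 3 (0.135 and 0.104). Of 23 cadherins 3 were higher and 0 lower (Pcdh8, Cdh4 and Pcdh11x, by 1.46, 1.62 and 1.20). Of 29 calcium-binding genes other than Calb1, S100a6 and Kcnip2 were higher, and Pvalb, Pcp4, Necab2 and Kcnip3 lower. Among 21 immediate early genes edgeR called 1, Nr4a2, which was lower (-1.05), while DESeq2 called 1 higher and 2 lower. Nr4a2 is a gene also known as a marker of deep-layer neurons. Of 10 tested stress genes 0 were called by edgeR, with 6 at an unadjusted p under 0.05 and 0 called by DESeq2. Of 7 astrocyte genes 0 were called by edgeR (3 unadjusted, 1 lower by DESeq2), and of 9 oligodendrocyte genes also 0 (4 unadjusted, 0 by DESeq2). Of 4 tested genes of inhibitory neurons edgeR called Pvalb and DESeq2 called 2, all lower. The Tnnc2 Eps8l2 cells held 3483 of the 6551 counts of Pvalb in others, and 63.8% of those cells had a count. With those cells left out Pvalb differed by -5.91, still called. Cdh4, Pcdh11x and Nr4a2 each lost the call when any 1 animal was left out, with edgeR adjusted p from 0.0836 to 0.229, 0.0674 to 0.111 and 0.0752 to 0.164.

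The leading genes were looked at in their promoter sequences, as genes that were higher together in members. The 250 bases before the RefSeq start of Ddit4l, Rasgrf2 and Evc2 (build GRCm38.p6) are shown 5′ to 3′ on the strand of the gene, because these 3 led the group at high counts. Capitals mark matches to the E-box CANNTG, to its form CAGATG, to TATAAA and to TGACG, searched on both strands, where CAGATG is always also a CANNTG and the CANNTG and TGACG matches in Rasgrf2 overlap. Genes and motifs were chosen after the values were seen.
Ddit4l (chr3:137623422-137623671, plus strand): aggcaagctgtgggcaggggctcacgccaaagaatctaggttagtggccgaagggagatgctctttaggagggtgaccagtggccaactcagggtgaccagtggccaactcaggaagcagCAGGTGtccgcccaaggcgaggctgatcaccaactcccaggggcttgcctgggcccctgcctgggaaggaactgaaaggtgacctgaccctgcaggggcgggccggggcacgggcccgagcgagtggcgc
Rasgrf2 (chr13:92131829-92132078, minus strand): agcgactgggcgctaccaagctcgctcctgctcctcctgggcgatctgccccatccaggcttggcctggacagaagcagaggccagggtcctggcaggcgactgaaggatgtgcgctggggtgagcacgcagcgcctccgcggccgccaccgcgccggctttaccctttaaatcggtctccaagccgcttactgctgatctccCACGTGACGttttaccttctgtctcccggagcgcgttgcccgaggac
Evc2 (chr5:37338228-37338477, plus strand): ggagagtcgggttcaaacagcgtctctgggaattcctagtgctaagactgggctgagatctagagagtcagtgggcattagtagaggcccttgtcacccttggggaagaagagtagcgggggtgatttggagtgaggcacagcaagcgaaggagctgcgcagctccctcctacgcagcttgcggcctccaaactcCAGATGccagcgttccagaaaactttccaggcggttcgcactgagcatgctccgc
Each of the 3 promoters held 1 CANNTG, at 130, 47 and 55 bases before the start. The motif was found, at any place and in any number, in 66.2% of all 32851 promoters of the same length. CAGATG was found in Evc2 (14.4% of all promoters), TGACG in Rasgrf2 (17.8%) and TATAAA in none of the 3 (12.4%). Such a match is a description of the letters in this window.

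Members were then set beside each of 2 neighbouring groups of cells. The Tnnc2 Eps8l2 cells (105 cells, 25, 36 and 44 in the animals) had at least 30 CPM of that pair and under 100 CPM of Calb1. Of 12303 genes tested, 470 were higher in members (3.82%) and 431 lower (3.5%), 7.32% in all. Csgalnact1, an enzyme of chondroitin sulphate synthesis, stood at 29.3, 26.6 and 26.2 CPM in members and had 0 counts in the Tnnc2 Eps8l2 cells, at least 183-fold higher in members when those cells are given 3 counts in all. Lpl had 0 counts there as well, at least 151-fold higher in members. Myh7, Chrm2 (a muscarinic receptor), Iqgap2 and Megf11 each had 1 count in those cells, against 1866, 762, 735 and 620 in members. G0s2, an inhibitor of triglyceride breakdown, Amica1 and Thsd7b had 0 counts in all 211 members, where the Tnnc2 Eps8l2 cells held 551, 559 and 436 counts. Penk stood at 5.01 CPM ± 7.77 in those cells, so its difference from members was 6.30 ± 0.76 (edgeR adjusted p = 0.00271).

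The Il1rapl2 cells (51 cells, 5, 19 and 27 in the animals) had at least 20 CPM of Il1rapl2 and met neither of the other limits. Of 11265 genes, 42 were higher in members (0.373%) and 53 lower (0.47%), 0.843% in all. Synpr, the vesicle protein synaptoporin, stood at 51.1, 71.8 and 69.8 CPM in members with 2154 counts, against 2 counts in the Il1rapl2 cells (333 times as much per total count, 95% interval 92.1 to 2752). Fam184b, Cldn22, Plk5 and Syt17 had 0 counts in the Il1rapl2 cells, at least 95.5-fold, 88.8-fold, 79.5-fold and 58.8-fold higher in members. Myh3, an embryonic myosin, had 851 counts in members and 3 there. Pcp4 stood at 765 CPM ± 428 in the Il1rapl2 cells (-4.49 ± 0.18, edgeR adjusted p = 2.3e-05), and Hrh3, Sstr2, Grik3, S100b and Gng12 were lower in members too. Without animal 3, 40 genes were higher and 31 lower, and 8 of these 12 genes lost their call (edgeR adjusted p from 0.0562 for Plk5 to 0.335 for Grik3). Cldn22, Synpr, Pcp4 and Hrh3 held it without any 1 animal. Animal 1 gave 5 Il1rapl2 cells.

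These comparisons share the members, so their values stand side by side and are not independent. Evc2 was called in all 3, at differences of 3.97 from all other cells, 3.81 from the Tnnc2 Eps8l2 cells and 6.61 from the Il1rapl2 cells. Rasgrf2 differed by 3.45, 5.48 and 3.41, Ddit4l by 3.43, 5.80 and 2.28, and Stard8 by 3.16, 5.30 and 4.27. These genes were called in all 3 as well, and so were Myh7, Plk5 and Syt17. The remaining leading higher genes, Abi3bp, Ntn5, Mylk3, Lpl and Lrg1, were not called against the Il1rapl2 cells. Their differences there were 10.03, 3.41, 4.50, 3.90 and 2.61 (edgeR adjusted p = 0.0521, 0.0922, 0.134, 0.223 and 0.564). Otof differed by 7.24, 7.32 and 7.18, with no call against the Il1rapl2 cells (edgeR adjusted p = 0.0766). Parm1, much lower in members than in the Tnnc2 Eps8l2 cells (-4.58), differed from the Il1rapl2 cells by -0.94 (edgeR adjusted p = 0.726). Prph, Ndrg2 and Htr2c were likewise not called against the Il1rapl2 cells, at -1.13, -2.13 and -0.52 (edgeR adjusted p = 0.862, 0.227 and 0.951). Slc30a3 differed by 1.00 from all other cells and by -0.23 from the Il1rapl2 cells (edgeR adjusted p = 0.68). Scnn1a differed from the Il1rapl2 cells by -5.36 and was not called (edgeR adjusted p = 0.213). Il22, Thsd7a, Hsd11b1, Hbegf, Pvalb, Pygm and Grik1 were left out there by the filter on low counts. Whether members differ from the Il1rapl2 cells in these genes was not tested.

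Members differed among themselves with their Calb1 level. They were divided, after the data were seen and as a description, into 39 cells of 100 to 300 CPM, 84 of 300 to 1000 and 88 of 1000 or more. Pooled over animals, Ddit4l stood at 204, 310 and 368 CPM in the 3 sets, Enpp2 at 118, 287 and 402 CPM, and Rasgrf2 at 93.8, 167 and 233 CPM. In animal 1 the middle set was highest for Ddit4l (126, 347 and 327 CPM) and Rasgrf2 (6.28, 279.9 and 229 CPM). Evc2 was also highest in the middle set when pooled, at 44.7, 80.4 and 72.9 CPM. Otof stood at 2.69, 7.87 and 32.7 CPM, with a count in 38.6% of the highest set. In animal 1, where members were shallower, Otof was 4.71 CPM in the highest set against 36.7 and 33.0 CPM in animals 2 and 3. Penk went the other way, with 556, 536 and 119 CPM, and in each animal the highest Calb1 set had the lowest Penk.

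The members nearest to the limit held genes of deep-layer neurons. Bcl11b stood at 131, 8.55 and 0.55 CPM over the sets and Fezf2 at 43.5, 3.76 and 1.52 CPM. Crym, a thyroid-hormone-binding protein, stood at 178.5, 11.6 and 8.34 CPM. Of the 39 cells at 100 to 300 CPM, 11 had at least 100 CPM of Fezf2 or Bcl11b, against 5 of 84 and 1 of 88. These levels came from animals 1 and 2, where Bcl11b stood at 211 CPM in the lowest set of each, more than from animal 3, where it was 23.8 CPM. In that set Stard8 was at 12.6 and 13.1 CPM in animals 1 and 2 and 40.4 CPM in animal 3. With the limit raised to 300 CPM (cells between 100 and 300 left out), 193 genes were higher and 289 lower.

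**Figure D4:**
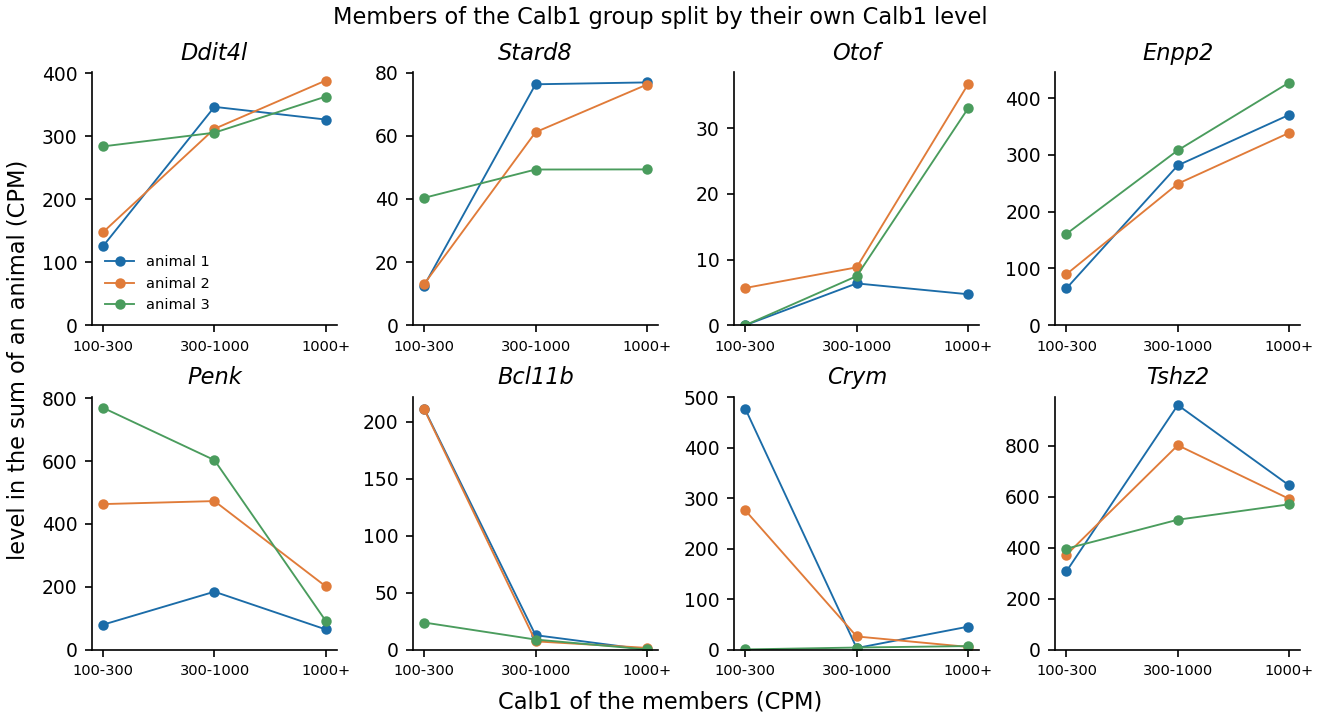
Levels of 8 genes (y axes, CPM) in members divided by their own Calb1 (x axes), with 1 line per animal. Ddit4l, Stard8 and Enpp2 are lower in the 39 members at 100 to 300 CPM, Penk is lowest in the 88 members at 1000 CPM or more, and Bcl11b and Crym are high in the lowest set in animals 1 and 2.

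Along the axis of dissection, members were compared between levels where an animal had at least 10 of them, which left animals 2 and 3. Against the anterior level, 0 of 11216 genes were called at the medium level by edgeR (380 at an unadjusted p under 0.05, and 17 higher and 21 lower by DESeq2). At the posterior level 5 of 11318 genes were called, all higher (0.0442%). Efnb3, an ephrin of axon guidance, stood at 59.6 and 15.97 CPM in posterior members and 0.86 and 0.10 CPM in anterior ones of animals 2 and 3 (6.44 ± 0.92, edgeR adjusted p = 0.00305). Caln1, a neuronal calcium-binding protein, stood at 293 and 265 CPM against 115 and 105 CPM (1.32 ± 0.23, edgeR adjusted p = 0.0174). Fxyd6, a modulator of the sodium pump, stood at 185 and 44.3 CPM against 20.4 and 17.2 CPM. Cdh13, a cadherin held by a lipid anchor, stood at 110 and 15.7 CPM against 3.45 and 3.37 CPM. Col6a1, a collagen chain, had 210 counts in posterior members and 1 in anterior ones.

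Animal 1, not in the test, had 6 posterior members, and its levels were higher at the posterior level for each of the 5 (351 against 130 CPM for Caln1, and 9.96 against 7.02 CPM for Col6a1). Few cells carried some of these genes, since Efnb3 had a count in 10 of 43 posterior members of animal 2 and 3 of 27 of animal 3. Of the 57 posterior counts of Col6a1 in animal 3, 54 came from sample 18. Other cells showed a posterior excess as well in 3 of 3 animals for Col6a1, Efnb3, Cdh13 and Caln1, for example 46.4, 114 and 31.3 CPM of Efnb3 at the posterior level and 6.44, 12.8 and 2.86 CPM at the anterior. Whether members differed from other cells in this was not tested. All 5 calls rest on 2 animals and the block, and 0 genes were called without the block, with no minimum of cells, or with sums per sample.

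**Figure D5:**
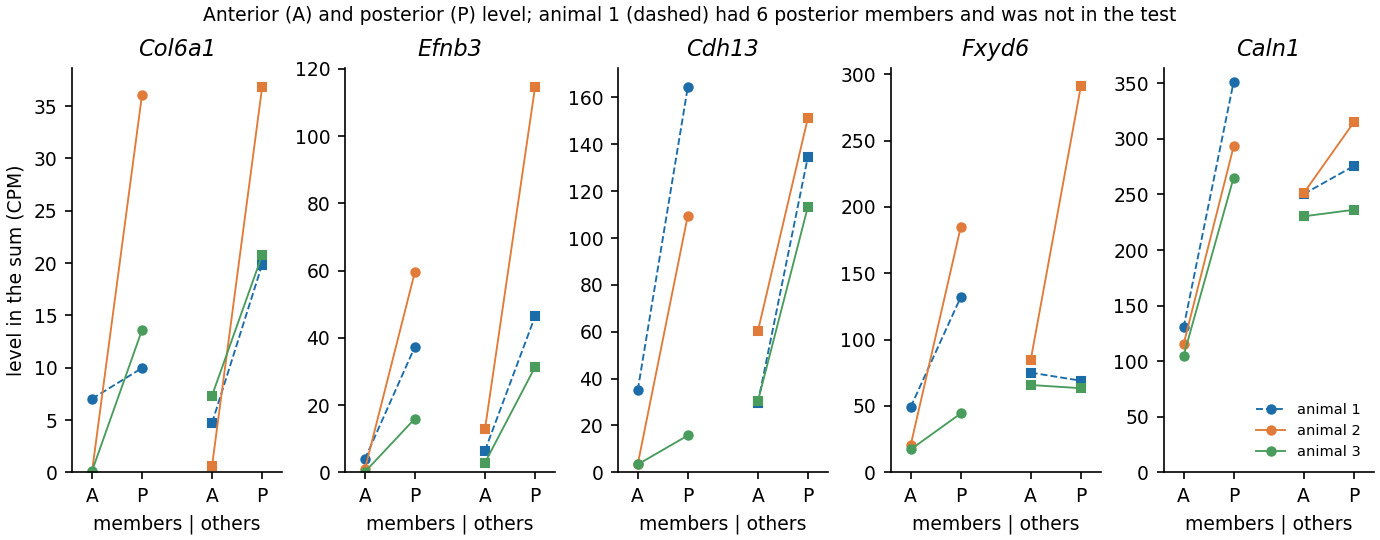
Levels (y axes, CPM) of the 5 genes called between anterior (A) and posterior (P) members, in members (circles) and other cells (squares), with 1 line per animal. In members each line rises from A to P, including that of animal 1, and in other cells Fxyd6 rises in animal 2 alone.

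In the 2 sections, called S4 and S8 here (which labelled section each one is was not used), the tenth of spots with the most Calb1 was compared with the rest, as a description. The 102 top spots of S4 held 773 CPM of Calb1 against 145 CPM in the rest, and the 95 of S8 held 662 against 110 CPM. Of 164 genes called higher in members that had at least 20 counts in each section, 64.6% were higher in the top spots of both sections, against 28.5% of 10836 genes. Of 194 genes called lower, 66.5% were lower in both, against 29.3%. Otof was 3.67 times as high in the top spots of S4 (37.4 against 10.2 CPM) and 2.81 times in S8 (48.2 against 17.2 CPM). Myh7, Plk5, Syt17, Rasgrf2, Evc2, Stard8 and Lpl were also higher in both. Ddit4l was not, with 23.8 against 27.8 CPM in S4 and 35.4 against 27.9 CPM in S8. Neither was Ntn5, at 0.90 times the rest in S4 and 1.46 times in S8. Abi3bp, Mylk3 and Lrg1, also among the 12 leading higher genes, had too few counts. Of 11 leading lower genes with enough counts, 9 were lower in both sections, and Thsd7a and Hbegf were mixed. Tshz2, alike in members and other cells, was lower in the top spots, with 12.5 against 53.2 CPM in S4 and 14.5 against 58.8 CPM in S8. A spot can hold several cells of different types, so spots with much Calb1 need not hold the same neurons. The spots were used with no choice of region, and whether the top spots lie in the retrosplenial cortex was not tested.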

How the data were processed

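Counts per gene and cell, and per gene and spot, were used as deposited, as whole numbers with no normalization. Per the submitters' processing notes, Seurat and Space Ranger were used and the builds NCBIM37 and mm10 are named. The aligner, the filters, the use of strand and whether cell counts are reads or molecules are not given in the sources used here. The animal of each cell came from the deposited cell table and its level from its column name.

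The cells, the gene lists and the tests were chosen with earlier results of these data known. Counts were summed per animal over members and over the cells they were compared with, and a quasi-likelihood F-test was run (edgeR 4.0.16, R 4.3.3), after edgeR's own filter on low counts and TMM scaling. Both sums come from the same animal, so the animal was a block in the main fit, which is where the pairing comes from. Calb1, Tnnc2 and Eps8l2 were not tested, and neither was Il1rapl2 where it chose the other cells. Standard errors are the difference divided by the square root of F. Totals were 2306470 to 15974543 counts per sample. The 3 animals are the replicates. The block takes out shifts in level between animals. The p-values of the main fit therefore set a difference within animals against how much that difference varies from animal to animal.

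Named genes were, for each comparison, up to 12 in each direction (6 for the 2 group comparisons) with the largest difference among called genes that moved the same way in every animal, at 20 CPM or more in the higher group, without predicted, ribosomal and mitochondrial genes. Up to 4 called genes came from each of 19 lists (506 genes). Some genes of these lists are not reported here. Intervals and floors (3 counts) cover counting error only. No doublet caller was run. Alternatives included DESeq2 1.42.0, RLE scaling, no filter, no block, sums per sample, other Calb1 limits, thinning to 50000 counts (61 cells, 9 of them members, were shallower and left out) and leaving out each animal. The fit was tested on simulated data. Promoters were matched by symbol in the RefSeq table for GRCm38.p6, with 250 bases before the start. Python 3.11.15 with scipy 1.17.1 computed exact tests.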

Additional observations from a re-analysis of the deposited data

How the results depend on the processing

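Against all other cells, DESeq2 called 286 genes higher and 483 lower, and held all 407 calls. Sums per sample gave 230 higher and 420 lower. Leaving out 1 animal gave 106 to 143 higher and 146 to 203 lower, and 292, 243 and 222 of the 407 calls held without animals 1, 2 and 3. The fit without the replicate block gave 186 higher and 295 lower against all other cells, 515 and 463 against the Tnnc2 Eps8l2 cells, and 51 and 50 against the Il1rapl2 cells. Of 59 genes named against all other cells, 36 kept their call in every alternative that tested them. DESeq2 called 752 higher and 639 lower against the Tnnc2 Eps8l2 cells (345 to 418 and 335 to 385 without 1 animal), and 172 and 131 against the Il1rapl2 cells (40 to 58 and 31 to 55). Between levels, DESeq2 called 17 higher and 21 lower at the medium level, and 7 higher and 1 lower at the posterior level. The 5 posterior calls became 0 with no minimum of cells, 0 without the block and 0 with sums per sample of at least 5 cells, an alternative chosen after seeing the data along with the one that leaves out the Tnnc2 Eps8l2 cells. A Calb1 limit of 300 CPM gave a share of members of 22.5%, and one of 50 CPM gave 28.9%. No named gene reversed its direction in these alternatives, while 3 of the 407 calls had the opposite sign without the Tnnc2 Eps8l2 cells. The cause of these shifts was not tested, and only some of the alternatives hold fewer animals or cells. Leaving out an animal was not run between levels, where the fits hold 2 animals and the 1 left would give no spread to estimate. Depth is lowest in animal 1, whose members held 1743235 counts in all.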

Other observations

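Penk, which makes enkephalin, was high in some members and near absent in the rest. With a limit of 100 CPM, chosen after the values were seen, 104 members were above it (9, 44 and 51 in animals 1, 2 and 3) and 107 below. Otof stood at 10.9 and 6.11 CPM in the Penk cells of animals 2 and 3, and at 27.0 and 34.6 CPM in the members below the limit. In animal 1 the order was the opposite, at 7.16 and 2.53 CPM. Calb1 itself had the same order as Otof in each animal. It stood at 933, 749 and 765 CPM in the Penk cells of animals 1, 2 and 3, against 818, 1001 and 1438 CPM. Wnt10a, a secreted Wnt ligand, was higher in the Penk cells of each animal, at 69.9, 159 and 135 CPM against 60.8, 62.2 and 85.5 CPM. Cck did not follow the division, at 4063 CPM ± 412 and 3921 CPM ± 655. Rasgrf2 was alike as well, at 183 CPM ± 40.5 and 185 CPM ± 59.2. The share of Penk cells among members was 65.2% anterior, 61.9% medium and 37.2% posterior in animal 2, and 45.7%, 66.7% and 44.4% in animal 3. In animal 1 they were 6 of 17 anterior, 0 of 1 medium and 3 of 6 posterior members. These are descriptions with no test.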
